A study of Mus musculus with 12 samples.

Results

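The regions described here are stretches of open chromatin that were called as peaks in all 3 ATAC-seq libraries labelled cKO and in none of the 3 labelled WT. They were chosen by the peak calls themselves. All peaks of the 6 lists that share at least 1 bp were merged, which gave 112191 regions on autosomes, and 309 of these (0.275%) met the rule. The reverse pattern, a peak in all 3 WT lists and in no cKO-labelled list, was held by 2772 autosomal regions, and 32845 had a peak in all 6 lists. These counts moved with list length. The WT lists held 75017, 60069 and 64585 peaks and the cKO-labelled lists 54133, 64289 and 56148. With each list cut to the length of the shortest, 454 regions met the rule and 1837 had the reverse pattern. The cells are Th2 cells of the mouse, a class of helper T cell that drives allergic responses, from a study of allergic asthma whose title names NRF2. NRF2, encoded by Nfe2l2, is a transcription factor that switches on antioxidant genes. There are 3 libraries of each genotype for ATAC-seq and 3 others of each for RNA-seq. WT and cKO (conditional knockout) are all that the labels give: the deleted gene, the driver of the deletion, the animals' strain and age, and whether libraries came from separate animals are not stated, so the spread between libraries may be technical.

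ATAC-seq cuts DNA with a transposase that can enter only where nucleosomes leave DNA exposed. Open regions mark active or primed promoters, the stretches where transcription begins, and distal enhancers, which regulate genes from a distance. Many mammalian promoters lie in CpG islands, stretches rich in C, G and the CpG dinucleotide, where DNA is usually unmethylated and nucleosomes are loosely held even when the gene is silent. Promoters outside such islands tend to be open only in the cell types that use them.

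Of the 309 regions, 27 held the annotated start of a gene, 31 starts of 29 genes in all. The bases upstream of a start are shown for the 5 tallest of these regions, because base composition is a property the rule did not use. Each line gives the 250 bases before the start, 5′ to 3′ on the gene's strand, from RefSeq on GRCm38.p6, the assembly that mm10 represents. Capitals mark CpG dinucleotides. The stretches are chr15:101292975-101293224 (plus strand, Smim41), chr2:143547838-143548087 (minus, Pcsk2os1), chr7:121392046-121392295 (plus, Hs3st2), chr16:96443615-96443864 (minus, Itgb2l) and chr13:54749875-54750124 (minus, Gprin1).
Smim41: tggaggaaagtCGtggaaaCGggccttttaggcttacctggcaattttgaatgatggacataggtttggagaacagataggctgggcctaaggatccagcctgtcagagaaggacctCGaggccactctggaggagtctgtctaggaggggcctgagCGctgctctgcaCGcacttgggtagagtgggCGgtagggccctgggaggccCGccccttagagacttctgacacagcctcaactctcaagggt
Pcsk2os1: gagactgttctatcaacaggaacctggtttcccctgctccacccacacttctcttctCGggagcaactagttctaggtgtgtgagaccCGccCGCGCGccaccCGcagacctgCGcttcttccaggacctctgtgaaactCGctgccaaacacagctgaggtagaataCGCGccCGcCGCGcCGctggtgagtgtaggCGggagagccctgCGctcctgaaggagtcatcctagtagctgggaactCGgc
Hs3st2: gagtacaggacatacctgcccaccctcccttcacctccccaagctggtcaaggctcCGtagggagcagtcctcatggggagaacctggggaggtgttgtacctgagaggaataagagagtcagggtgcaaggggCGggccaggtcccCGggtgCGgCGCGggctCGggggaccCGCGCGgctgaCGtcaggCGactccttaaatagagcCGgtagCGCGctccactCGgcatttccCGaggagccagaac
Itgb2l: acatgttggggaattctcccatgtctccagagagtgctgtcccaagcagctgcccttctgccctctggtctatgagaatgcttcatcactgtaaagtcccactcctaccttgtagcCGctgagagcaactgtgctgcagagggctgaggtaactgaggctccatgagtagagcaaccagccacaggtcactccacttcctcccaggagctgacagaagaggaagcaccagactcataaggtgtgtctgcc
Gprin1: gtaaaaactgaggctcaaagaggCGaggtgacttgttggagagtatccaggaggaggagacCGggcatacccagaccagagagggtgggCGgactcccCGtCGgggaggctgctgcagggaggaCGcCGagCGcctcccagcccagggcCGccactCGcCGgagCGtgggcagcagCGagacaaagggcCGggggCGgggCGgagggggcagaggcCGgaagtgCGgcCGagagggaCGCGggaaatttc
The stretch at Gprin1 holds 21 CpG dinucleotides and those at Hs3st2 and Pcsk2os1 17 each. Smim41 has 7 and Itgb2l has 1. Both kinds of start, CpG-rich and CpG-poor, therefore occur among the tallest regions. Hs3st2 encodes a heparan sulfate sulfotransferase, Gprin1 a G protein-interacting protein of neurites, and Itgb2l an integrin beta chain related to the leukocyte beta-2 chain. Smim41 encodes a small membrane protein and Pcsk2os1 is a noncoding RNA at the Pcsk2 gene.

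The 309 regions were low. Height is measured per library as the tag count of its highest peak there, summed over that peak's length and scaled by the authors to 10000000 tags per library. The median region had a mean height of 9.37 over the cKO-labelled libraries, and means ran from 6.84 to 22.3. Heights in cKO-labelled replicate 1 had a median of 8.62 and ran from 6.55 to 37.9. In replicate 2 the median was 8.74 and the range 5.64 to 30.7, and in replicate 3 it was 8.75 and 6.46 to 41.1. The libraries were thus alike in level, and no library led: replicate 1 was highest at 101 regions, replicate 2 at 94 and replicate 3 at 114. In unscaled tags the median peak rested on 12.5, 15.5 and 11.5 tags. Of the 309 mean heights, 294, 294 and 301 lay under the median peak of WT replicates 1, 2 and 3, which was 15.5, 14.7 and 17.6. These are the values that chose the regions, so they are given as a description and were not tested.

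The spread between libraries was large beside the level. The median SD over the 3 libraries was 20.3% of the mean, and the highest library exceeded the lowest 1.48-fold at the median region, more than 2-fold at 64 regions and 6.33-fold at the most. HOMER, the peak caller, keeps a peak when a window of 500 bp holds a set number of tags, which was 10, 13 and 11 in the WT libraries and 11, 12 and 10 in the cKO-labelled ones. The score of a peak is the tag number that is compared with this minimum. Of the 934 peaks that make up the 309 regions, 238 scored exactly at the minimum of their library and 716 (76.7%) within 2 tags of it. In WT-only regions 49.3% of peaks scored that low, in regions called in any 3 lists of both genotypes 69.4%, and in regions of all 6 lists 31.1%. The peaks in question therefore sit nearer the edge of detection than the peaks of WT-only regions, as the plot of scores above the minimum shows. A window with fewer tags than the minimum gives no peak, so no peak in a WT list does not mean no tags there. Tag counts of the WT libraries outside called peaks were not analysed here.

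**Figure D1:**
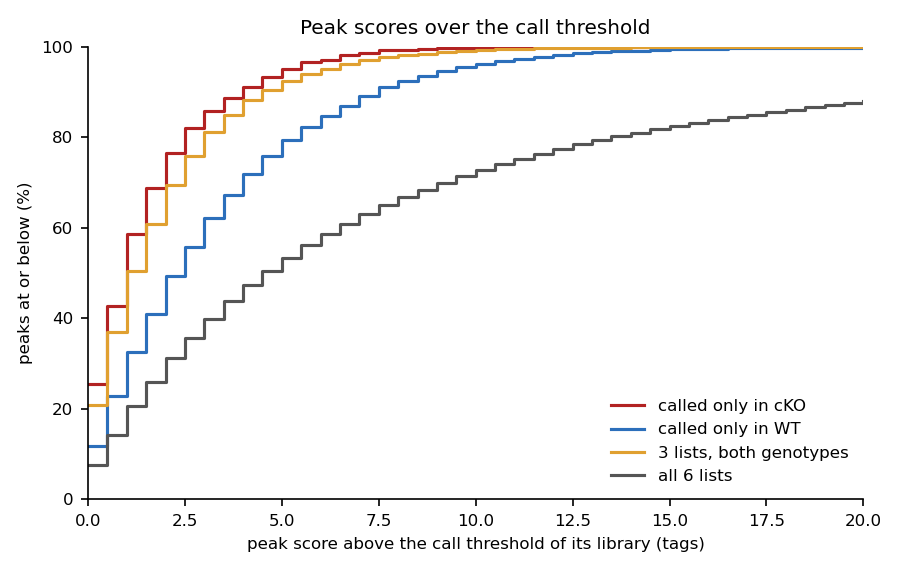
Share of peaks (y axis, percent) whose score lies at or below a given number of tags above the minimum of their library (x axis, tags), for 4 sets of autosomal regions. At 2 tags above the minimum the line for regions called only in cKO-labelled libraries stands at 76.7% and that for WT-only regions at 49.3%.

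The regions just outside the rule were of like height. There were 635 autosomal regions with a peak in all 3 cKO-labelled lists and 1 WT list, and their median height was 10.3 in the cKO-labelled libraries and 9.82 in the WT library that called them. That library was WT replicate 1, which has the longest list (75017 peaks), in 368 of them, replicate 3 in 169 and replicate 2 in 98. A further 2242 regions had a peak in only 2 of the cKO-labelled lists and in no WT list, with a median height of 8.33. The tallest region with 1 WT peak, at chr2:116558803-116562696 outside any gene, had heights of 16.9, 38.9 and 36.5 in the cKO-labelled libraries and 6.79 in WT replicate 1. The second, at chr1:3670493-3672585 in Xkr4, a gene related to phospholipid scramblases, had 31.7, 28.5 and 25.1 against 11.3 in WT replicate 3. The third, at chr17:25380081-25383994 in Cacna1h, which encodes a T-type calcium channel subunit, had 17.2, 50.2 and 13.7 against 7.88 in WT replicate 3. These 3 regions had a higher mean in the cKO-labelled libraries than any of the 309, and a single lower WT peak kept each of them out.

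The 12 tallest regions all lay in gene bodies, 7 of them within 1 kb of a gene's end. All were wider than 1 kb (1307 to 4259 bp, against a median of 919 bp over the 309), and none of their peaks scored above 15.5 tags in a 500 bp window. Height sums tags over a peak's length, so a link between height and width is in part built into this measure. Over the 309 regions, Spearman's rho of mean height and width was 0.59, a description across regions that share libraries. Replicates were close at some. At Csnk1g2, which encodes a casein kinase 1 isoform (chr10:80636804-80639915), heights were 23.1, 18.3 and 22.4 in replicates 1 to 3. At the start of Pcsk2os1 inside Pcsk2, the gene of a prohormone convertase (chr2:143546871-143548335), they were 23.1, 17.8 and 17.1. At Sh3tc1 (chr5:35699502-35701521) they were 19.7, 21.7 and 14.4.

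At 6 of the 12 the libraries differed 2-fold or more. In the tallest, inside the noncoding Arhgap33os (chr7:30518398-30520825), replicate 1 stood at 37.9 and the others at 14.7 and 14.4. At Smim41 (chr15:101292166-101295954) replicate 3 stood at 41.1 and the others at 17.2 and 6.49. At Gpc6, which encodes a glypican (chr14:116925069-116927195), the values were 7.59, 30.7 and 19.0, and at Begain, a synaptic gene (chr12:109032795-109035143), 11.0, 30.7 and 9.51. Each of these means is carried by a single library or by 2 of 3. The region inside Nosip, the gene of a protein that binds nitric oxide synthase (chr7:45073169-45077428), was the widest at 4259 bp and had heights of 15.9, 29.9 and 9.13. At Hs3st2 (chr7:121391314-121393694) they were 22.1, 19.2 and 8.37. Also among the 12 were Thop1, an oligopeptidase gene (chr10:81078438-81081022, heights 21.7, 16.6 and 12.2), and the noncoding Gm31055 (chr4:153157384-153158691, heights 21.0, 16.4 and 11.0). The plot of heights at the tallest regions shows each library at 11 of the 12.

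**Figure D2:**
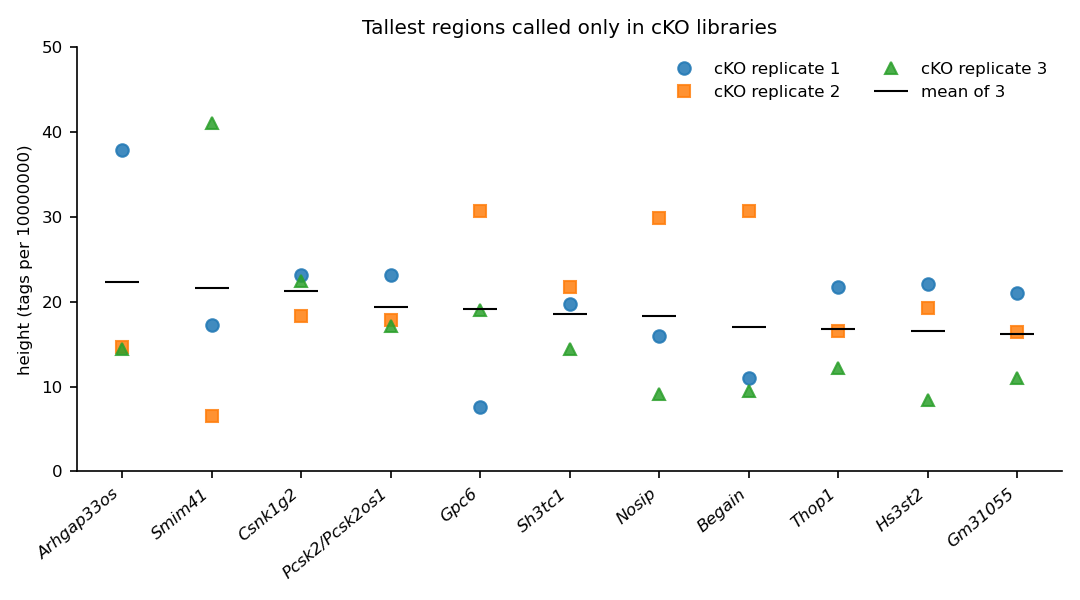
Height (y axis, tags per 10000000) at 11 of the 12 tallest regions called only in cKO-labelled libraries, with 1 symbol per library and a dash for the mean of 3. The libraries lie close together at Csnk1g2, while 1 library stands far above the others at Arhgap33os (37.9) and Smim41 (41.1).

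The 3 peaks of a region did not always cover the same bases. At 270 regions a stretch was covered in all 3 cKO-labelled lists, with a median length of 342 bp. At the other 39 the peaks were linked only through merging. Among the latter were the 2 widest regions, Nosip and Smim41, while the next widest, Csnk1g2 (3111 bp), had a common stretch of 97 bp. At the low end stood a region in Foxp1, a forkhead factor of resting T cells (chr6:98954323-98955087), with heights of 6.90, 5.64 and 7.98. The next lowest, at the predicted gene Gm35846 (chr12:111035129-111036050), had 7.59, 6.20 and 6.84. The 3 peaks of each shared 237 and 80 bp, and none scored more than 0.5 tags above the minimum of its library.

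Most of the regions lay near other open chromatin. The nearest WT peak was within 1 kb of 76 regions and within 5 kb of 202, with a median distance of 2619 bp, and more than 50 kb away from 23. The nearest region of all 6 lists was within 1 kb of 30 and within 5 kb of 97, with a median distance of 11920 bp. It was more than 10 kb away from 164 and more than 50 kb away from 78. The regions were spread over all 19 autosomes, from 0.115% of the regions of chromosome 3 to 0.381% of those of chromosome 15 (20 of 5243). In 12 cases a neighbouring pair lay within 50 kb, among them 2 regions in Ctsd, the gene of a lysosomal protease, 1549 bp apart, and 2 in Shank3, a synaptic scaffold gene, 19589 bp apart. Another pair, 24574 bp apart, lay outside any gene, 15733 bp from Actb (beta-actin) and 9570 bp from Fscn1 (fascin, an actin-bundling protein). None overlapped an annotated miRNA hairpin.

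Position relative to genes was not used by the rule, and its shares in cKO-only regions were above those in WT-only regions. Against all autosomal regions, the gene-body share was higher, while the shares at coding gene ends and gene starts were near. Of the 309, 257 (83.2%, exact binomial 95% interval 78.5 to 87.2) overlapped a gene body. The share was 63.3% for WT-only regions, 70.2% for regions called in any 3 lists of both genotypes and 78.4% for regions in all 6 lists. Over all autosomal regions it was 71.2%, below the interval of the cKO-only share. An end of a protein-coding gene, start or stop, lay within 1 kb of 58 regions, which is 18.8% (exact binomial 95% interval 14.6 to 23.6). The same held for 123 WT-only regions, 4.44% (3.70 to 5.27), for 11.6% (10.8 to 12.5) of regions in any 3 lists of both genotypes, and for 35.4% (34.8 to 35.9) of regions in all 6 lists. Over all autosomal regions the share was 16.4%, which lies inside the interval of the cKO-only share. A gene start of any type lay inside 27 of the 309, 8.74% (5.84 to 12.5), against 1.41% (1.00 to 1.92) of WT-only regions and 4.53% (4.00 to 5.12) of those in any 3 lists of both genotypes. Over all autosomal regions this share was 10.5%, above that of the cKO-only regions. Without cKO-labelled replicate 1, 2 or 3 it fell to 5.104%, 5.12% and 5.47% of the regions then called only in cKO-labelled libraries. These values lie under the 5.78%, 5.73% and 5.92% of the set of both genotypes under the same settings, and above the WT-only 1.53%, 1.72% and 1.503%. With 1 cKO-labelled library left out, cKO-only regions needed a peak in only 2 cKO-labelled lists, while the set of both genotypes still needed 3 lists. The 2 sets thus differ in rule under these settings, and the part of any single library in the changed order was not tested. Without WT replicate 1 the cKO-only share was 13.2%. The intervals of the cKO-only and WT-only shares do not overlap for a coding gene's end or for a start inside, as the bars show. They cover counting error only, since regions from the same 6 libraries are not independent samples.

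**Figure D3:**
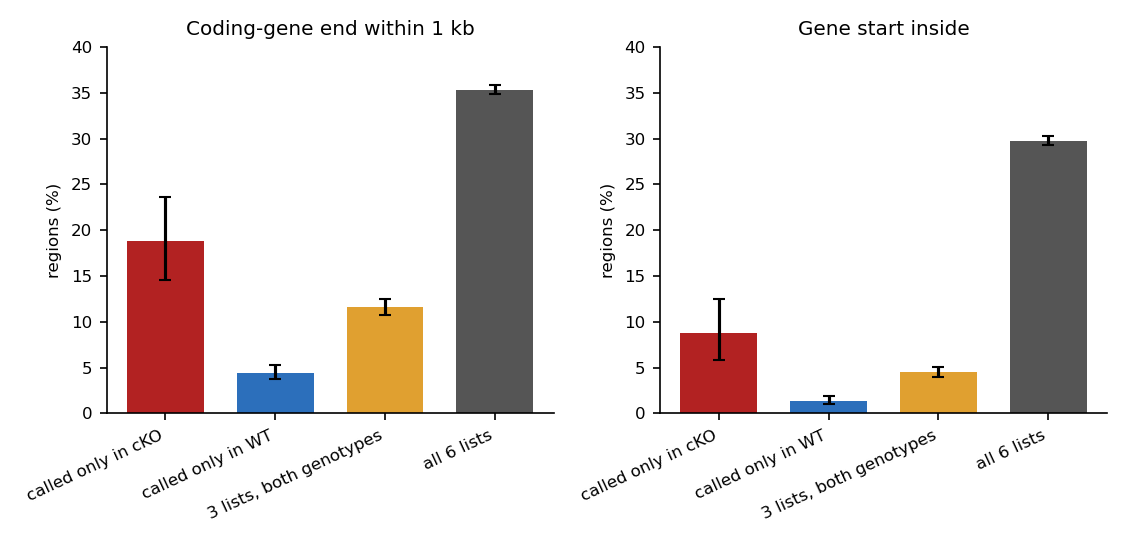
Share of autosomal regions (y axis, percent) with an end of a protein-coding gene within 1 kb (left) and with the start of a gene inside (right), for 4 sets of regions. Bars are shares and lines exact binomial 95% intervals, which cover counting error only: 18.8% of cKO-only regions against 4.44% of WT-only regions on the left, and 8.74% against 1.41% on the right.

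Width differed between the sets, with medians of 919 bp for cKO-only and 697 bp for WT-only regions, and a wider region reaches a gene end more often. The share near a coding gene's end was therefore also taken within ranges of width. Below 750 bp it was 8.86% (7 of 79) against 3.85% of WT-only regions. From 750 to 1000 bp it was 16.7% (17 of 102) against 4.71%, from 1000 to 1500 bp 22.2% (20 of 90) against 4.78%, and above that 36.8% (14 of 38) against 11.5%. Regions in any 3 lists of both genotypes had 7.41%, 13.6%, 18.5% and 20.2% in the same ranges, close to the cKO-only shares in all but the widest, which holds 38 cKO-only regions. Regions of all 6 lists had 4.75%, 8.99%, 27.3% and 52.1%. With only the 270 regions whose 3 peaks share bases, the share was 18.5%.

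The starts inside the regions were richer in C and G than those inside WT-only regions. The 300-base windows around the 31 starts (250 before, 50 after) had a median GC content of 61.3% and a median ratio of observed to expected CpG of 0.50. For 42 starts in WT-only regions these were 48.3% and 0.22, and for 13400 starts in regions of all 6 lists 62.0% and 0.78. Starts in regions of any 3 lists of both genotypes were close to the cKO-only values, at 58.0% and 0.48. All autosomal starts had 53.0% and 0.39. Windows with at least 55% GC and a CpG ratio of at least 0.6 were counted as CpG-rich. This was true of 12 of the 31 starts (38.7%), against 2 of 42 in WT-only regions (4.76%), 91 of 288 in regions of any 3 lists of both genotypes (31.6%), 64.7% in all 6 lists and 30.9% of all autosomal starts. The share was therefore above that of WT-only regions and close to that of all starts. In regions under 1000 bp it was 7 of 14 starts, against 0 of 30 in WT-only regions. In wider regions it was 5 of 17 against 2 of 12. The starts of Zdbf2 and Gm11608 among the 7 lie in a single region with overlapping windows, so the 7 are not separate loci. Regions of any 3 lists of both genotypes had 23.4% (41 of 175) in the narrower range and 44.2% in the wider. Regions of all 6 lists had 25.3% and 66.1%. The plot of base composition shows both sets among all starts.

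**Figure D4:**
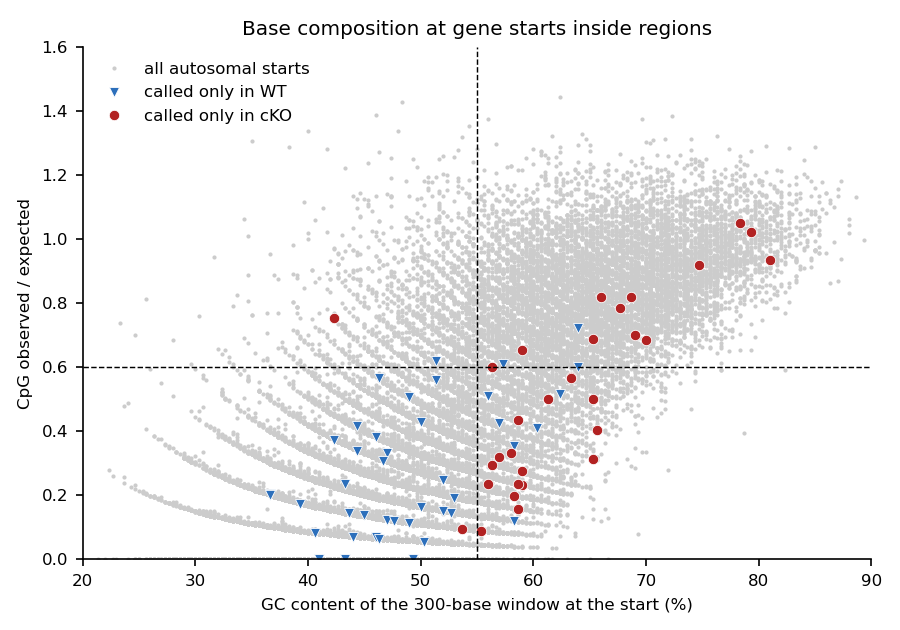
GC content (x axis, percent) and ratio of observed to expected CpG (y axis) of the 300-base window at each annotated autosomal gene start, with starts inside cKO-only and WT-only regions marked. Dashed lines stand at 55% and 0.6: 12 of 31 starts in cKO-only regions lie in the upper right field, and 2 of 42 in WT-only regions.

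The 12 CpG-rich starts belong to 11 genes. They include the transcription factor genes Sox14 and Foxn4, Htr7, which encodes a serotonin receptor, Dio3, a deiodinase gene of an imprinted locus, and the protease gene Adamts9. They also include Zdbf2, another imprinted gene, with the noncoding Gm11608 in the same region, as well as Maats1, Hs3st2, Gprin1 and Pcsk2os1. Heights at the Zdbf2 and Gm11608 region were 7.24, 8.74 and 7.98 in replicates 1 to 3, at Sox14 12.4, 9.87 and 14.4, and at Dio3 7.24, 20.3 and 7.98. Only 5 of the 11 were listed in the RNA table. Of these, Adamts9 had the highest mean level, 75.3 normalized counts, and Zdbf2 the lowest, 10.1.

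Protein-coding genes with a start inside one of the regions were often not tested for RNA. Of 21 such genes, 11 were listed in the RNA table and 8 (38.1%, exact binomial 95% interval 18.1 to 61.6) had a mean of at least 10 normalized counts. The 10 not listed have no RNA value, and genes were matched by name, so their level is not known. The shares were 57.9% of 19 genes for WT-only regions, with an interval of 33.5 to 79.7, and 48.0% of 196 for regions of any 3 lists of both genotypes. They were 90.4% of 9589 for regions of all 6 lists and 64.1% of all coding genes with a start in the sequence table. The share for the 309 regions was thus under that for regions of all 6 lists, while its interval overlaps the one for WT-only regions.

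Short sequence motifs were counted on both strands of the same 300-base windows, as letters and not as sites of binding; letters that fit both TGACNNNGC and TGANTCA count for both. GGGCGG, the GC box that SP factors bind, was in 20 of the 31 windows (64.5%), against 31.0% in WT-only regions, 65.8% in all 6 lists and 36.0% of all autosomal starts. TGACNNNGC, the core of the antioxidant response element to which NRF2 binds, was in 7 (22.6%), against 14.3%, 14.4% and 12.5% in the same order. Among the 7 were Smim41, Vill, Foxn4 and Ubxn10. TGTGGT, the RUNX core, was in 2 (6.45%), against 31.0% in WT-only regions and 16.7% of all starts, and TGANTCA, bound by AP-1, in 1 (3.23%), against 16.7% and 7.85%. CCAAT was in 5 (16.1%; 37.3% of all starts), CCGGAAG in 4 (12.9%; 9.004%) and AGATAA in 1 (3.23%; 11.2%), and 8 windows held none of the 7 motifs. In regions of any 3 lists of both genotypes, GGGCGG was in 45.1%, TGACNNNGC in 12.5%, TGTGGT in 17.0% and TGANTCA in 9.72%. CCAAT was in 31.6% there, CCGGAAG in 3.82% and AGATAA in 6.94%. WT-only regions had CCAAT in 14.3%, CCGGAAG in 2.38% and AGATAA in 9.52%. Regions of all 6 lists had TGTGGT in 12.2%, TGANTCA in 5.1%, CCAAT in 36.7%, CCGGAAG in 17.6% and AGATAA in 5.545%. With 31 windows in cKO-only regions, some of which overlap at the same locus, a single window is more than 3% of a share.

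A gene was linked to a region that overlapped its body or lay within 1 kb of its end. The 309 regions were linked to 299 genes, 0.636% of all autosomal genes in the gene table, and to 1.14% of the protein-coding ones, so that 0 in a list of 36 to 46 genes is near this share. No region overlapped, or lay within 1 kb of, any of 36 Th2 genes, 46 genes of NRF2 and its targets or 40 immediate early and heat shock genes found in the gene table, and none any of the marker genes of 8 cell classes. The other 4 lists had 5 genes with a region, each inside the gene body, of which 4 are described. At Runx3, a factor of cytotoxic and Th1 cells (1 of 27 genes of other helper lineages; chr4:135123339-135125073), heights were 7.93, 8.74 and 20.5. At Nfatc2, a factor activated by T cell receptor signals (1 of 37; chr2:168544003-168544636), they were 8.28, 7.05 and 7.98. At Zeb2, a transcriptional repressor active in effector T cells (1 of 28 survival and naive-state genes; chr2:45081414-45081991), they were 9.31, 7.61 and 11.0. The chromatin list had 2 of 40, among them the DNA methyltransferase gene Dnmt3a (chr12:3910432-3911183), with 8.28, 9.03 and 9.51. These 4 regions were near the median height, apart from replicate 3 at Runx3. A pair of antigen receptor loci outside those lists, picked out after their values were seen, also held a region each: Ighg1 (chr12:113326745-113328323; 17.6, 10.4 and 14.4) and Tcra (chr14:53736348-53736978; 8.28, 10.4 and 10.3).

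RNA-seq libraries were not used to choose the regions, and so they allow a test. In these bulk libraries a change in the RNA of a cell and a change in the share of cells that make it cannot be told apart. All 8 T cell markers were listed in the RNA table, at a summed 0.248% to 0.273% of normalized counts in WT and 0.250% to 0.308% in cKO-labelled libraries. Within this sum markers moved in both directions. Cd3d was lower without overlap, at 2367 to 2900 in WT and 1743 to 2054 in cKO-labelled libraries. The mean of Cd4 was higher (1954.5 and 3132.3), with overlap. Of 8 Th2 markers, Il4, Il5 and Ptgdr2 had means under 10, whereas Gata3, the factor that defines Th2 cells, stood at 688 to 755 in WT and 590 to 803 in cKO-labelled libraries. Others differed between the groups without overlap. Il13, a Th2 cytokine gene, stood at 645 to 1093 in WT and 322 to 438 in cKO-labelled libraries, and Ccr8, a chemokine receptor gene, at 159 to 204 and 232 to 356. Their part in the results was not tested. The Th2 markers summed to 0.0287% to 0.0338% in WT and 0.0267% to 0.0316% in cKO-labelled libraries. Myeloid and dendritic markers summed to 0.0208% to 0.0249% and 0.0180% to 0.0231%, and B cell markers to 0.0083% to 0.0148% and 0.0086% to 0.0151%. Nfe2l2, the gene of NRF2, was at 170, 155 and 147 normalized counts in WT replicates 1 to 3 and at 453, 326 and 392 in the cKO-labelled ones, with no overlap. The labels do not give the deleted gene or exons, so these values check no label.

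The 299 linked genes (235 protein-coding) lay at 262 of the 309 regions. Of them, 218 were in the RNA table, and 179 had a mean of at least 10 normalized counts and were tested. None of the 179 passed an adjusted p of 0.05 in limma, against 37 of all 18074 genes tested (0.205%). At an unadjusted p under 0.05 there were 23 (12.8%), against 12.1% of all genes. Of these, 19 were higher in cKO-labelled libraries (10.6%, against 6.05% of all genes) and 4 were lower (2.235%, against 6.05%). More higher than lower genes were not particular to cKO-only regions. At this p, 8.044% of genes linked to WT-only regions were higher and 3.641% lower. For regions of any 3 lists of both genotypes the shares were 8.599% and 3.943%. For regions of all 6 lists they were 7.177% and 7.496%. The median log2 change, cKO-labelled minus WT, was 0.12 over the linked genes and 0.06 over all genes, and 111 of 179 (62.0%) were above 0, against 54.97% of all genes. Genes linked to WT-only regions had a median of 0.09, those linked to regions of any 3 lists of both genotypes 0.12, and those linked to regions of all 6 lists 0.05. The value for cKO-only regions was thus close to that for regions called in 3 lists of both genotypes.

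Gene length moved with these values. The linked genes were long, with a median of 58.1 kb from end to end where all genes had 20.1 kb. This was not particular to them. Genes linked to WT-only regions had a median of 85.2 kb and those linked to regions of any 3 lists of both genotypes 56.8 kb. For regions of all 6 lists it was 23.9 kb. When all tested genes with a known span were ordered by it and split into 5 equal groups, the median log2 change was -0.04 in the shortest group and 0.15 in the longest. The linked genes had medians of -0.62, 0.09, 0.13, 0.01 and 0.20 in these groups, from the shortest to the longest, which held 3, 27, 33, 30 and 86 of them. The part of gene length in the linked genes' values was not tested beyond this. The plot of RNA change against RNA level shows the linked genes among all others.

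**Figure D5:**
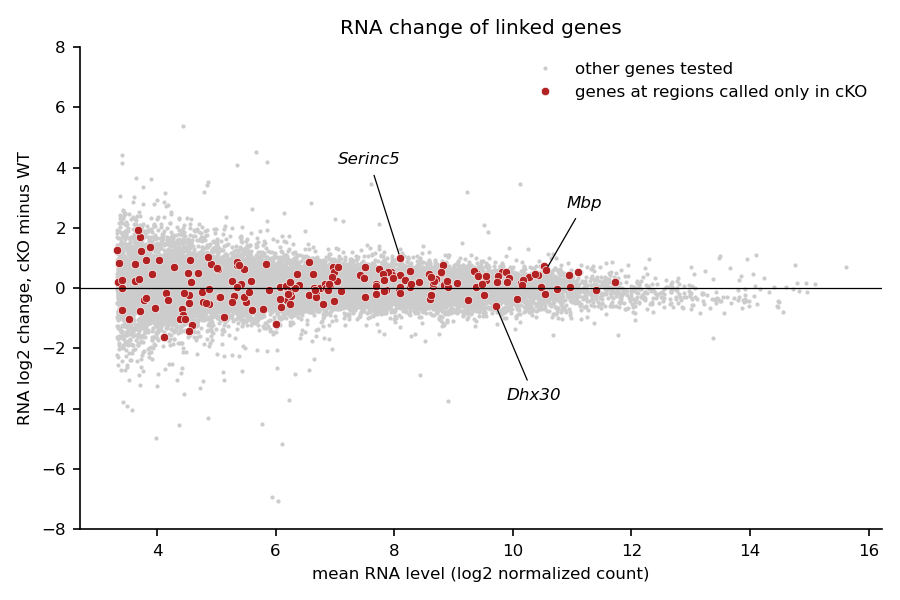
RNA change (y axis, log2, cKO-labelled minus WT) against mean RNA level (x axis, log2 of normalized counts) for all genes tested, with the 179 genes linked to cKO-only regions in red. The red points lie within the spread of the other genes, with a median of 0.12 against 0.06 for all genes; labels mark 3 of them.

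The linked gene with the smallest p was Serinc5, which encodes a membrane protein that restricts retroviruses. Its RNA was at 221, 141 and 188 normalized counts in WT replicates 1 to 3 and at 359, 301 and 437 in the cKO-labelled ones. The groups do not overlap, and the log2 difference was 1.00 (SE 0.24, limma adjusted p = 0.114). The region in its body (chr13:92675878-92676823) had heights of 7.59, 15.2 and 11.8. Mbp, whose locus encodes myelin basic protein and the Golli proteins of T cells, was at 1249, 1122 and 1193 in WT and 2022, 1329 and 2121 in cKO-labelled libraries. Its log2 difference was 0.59 (SE 0.18, limma adjusted p = 0.208), and leaving out cKO-labelled replicate 2, the lowest of its group, raised it to 0.80 with a limma adjusted p of 0.0406 (0.0406 to 0.744 over all alternatives run for it). The 3 peaks of its region (chr18:82574687-82575932; 12.1, 6.49 and 7.22) shared no bases. Dhx30, an RNA helicase gene, was lower: 1165, 987 and 897 in WT and 741, 704 and 557 in cKO-labelled libraries, a log2 difference of -0.61 (SE 0.18, limma adjusted p = 0.183). Its region (chr9:110084955-110086315) had heights of 12.8, 8.46 and 19.4.

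Of the linked genes, 92 had an adjusted p in the authors' deposited table, and those 3 were the ones under 0.05, against 5.68% of all genes with one. The authors' deposited table gave Serinc5 a log2 change of 0.85 (adjusted p = 0.00784), Mbp 0.49 (0.0409) and Dhx30 -0.49 (0.0383). The calls thus differ between that table and limma on the same 6 libraries, while the direction was the same.

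The other 7 genes named for their small p did not pass either. Fes, the gene of a tyrosine kinase of blood cells, had a mean of 91.7 ± 53.7 normalized counts in WT and 36.1 ± 9.56 in cKO-labelled libraries (SD, n = 3 each), a log2 difference of -1.20 with a limma adjusted p of 0.306. Tnrc6c, whose protein works in miRNA-guided silencing, had 358 ± 19.4 and 523 ± 73.0. Prkd2, a kinase gene of T cell receptor signalling, had 568 ± 59.8 and 783 ± 90.6. Levels at Hp1bp3, Actn1, Zer1 and Hk1, which encode a heterochromatin protein, alpha-actinin, a ubiquitin ligase subunit and hexokinase, gave log2 differences of 0.53, 0.55, 0.56 and 0.55. Apart from Fes, the 7 were higher in the mean of the cKO-labelled libraries, with limma adjusted p from 0.276 to 0.336 over all 7. The 4 list genes described had log2 differences of 0.45 (Dnmt3a, limma adjusted p = 0.458), 0.43 (Nfatc2, 0.482), 0.19 (Runx3, 0.745) and 0.03 (Zeb2, 0.971).

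Of the 10 tested genes with a start inside a region, 7 (70.0%) had a log2 difference above 0, against 54.97% of all genes. A limma unadjusted p under 0.05 was held by 1 of the 10 (10.0%), against 12.1% of all genes. This gene was Smim41, whose RNA was lower in cKO-labelled libraries. It stood at 29.0, 37.7 and 31.7 normalized counts in WT and 4.49, 22.4 and 14.6 in cKO-labelled libraries (log2 difference -1.41, limma adjusted p = 0.396). The region over its start is one of those with no common stretch. At the other tallest regions, RNA of Csnk1g2 (log2 difference 0.13), Nosip (0.04) and Thop1 (-0.22) overlapped between the groups. Gpc6 was at 29.1, 37.2 and 18.7 in WT and 41.9, 78.3 and 39.7 in cKO-labelled libraries (0.87, limma adjusted p = 0.482).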

How the data were processed

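ATAC-seq peak lists and an RNA-seq table were deposited for 6 libraries each. The submitters' processing notes name HOMER 4.11, Bowtie2 2.3.5.1, RSEM 1.3.3, STAR, edgeR and DESeq2, without roles, and the mm10 build. Per the file headers, HOMER called peaks in each library (13149952 to 18327127 tags) at a Poisson p-value of 0.001, with at most 1 tag per bp. The tag count of a peak is a signal scaled by the authors to 10000000 tags, the score is a deposited score in unscaled tags, and the deposited clonal fold is a ratio, not used here. The RNA table holds the authors' normalized counts, a deposited signal whose raw depth is unknown, with the authors' log2 fold change, p-value and adjusted p-value.

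Peaks sharing at least 1 bp were merged (Python 3.11.15, pandas 2.3.3). Genes came from RefSeq on GRCm38.p6, which matched 83.0% of RNA rows by symbol; starts and strands came from its promoter table. RNA was tested with limma 3.58.1 (R 4.3.3, eBayes with trend) on log2(value + 1) over genes with a mean of at least 10, Benjamini-Hochberg adjusted, threshold 0.05; a difference on this scale understates the change of low genes. The fit was checked on simulated data. Intervals are exact Clopper-Pearson 95% (scipy 1.17.1); figures used matplotlib 3.10.9. The regions and gene lists were chosen with earlier results of these data known. Named were the 12 tallest, 3 widest and 2 lowest regions, those at list genes, the 3 tallest with 1 WT peak, linked genes past the threshold and 10 with the smallest p (mean at least 50). The NRF1 motif was not searched, and 2 regions under this rule are not reported here. Alternatives were other overlaps, peak and RNA filters, scalings, distances, a replicate block and each library left out.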

Additional observations from a re-analysis of the deposited data

How the results depend on the processing

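The number of regions moved with the peak lists more than any other value. It was 309 as reported, 777 when each list was cut to its highest peaks, 50% of the shortest list (4 of them overlapping the 309), and 158 with peaks of height 8 or more. With each list cut to the length of the shortest it was 454 (218 overlapping the 309), against 1837 WT-only regions. Leaving out 1 library gave 413 to 1254: 688, 413 and 478 without WT replicates 1, 2 and 3, and 1254, 801 and 1133 without cKO-labelled replicates 1, 2 and 3. The rule was then applied to the remaining lists only, so fewer lists had to meet it. WT-only regions outnumbered cKO-only regions in each of the 12 settings compared, by 976 to 777 at the closest. The share near a coding gene's end was 41.1% within 5 kb, 28.8% for genes of every type, 38.7% with lists cut to 50%, 24.7% at height 8 or more, and 14.3% to 23.7% with 1 library left out; it was above the WT-only share in all 12 settings. The share with a gene start inside was 32.9% with lists cut to 50%, 15.2% at height 8 or more, and 5.104% to 13.2% with 1 library left out. The median height was 9.03 to 9.36 with 1 cKO-labelled library left out. No linked gene passed limma's threshold under any other pseudocount, filter, scaling or link rule, 1 (Mbp) did with 1 library left out (0 to 1), and 3 did by the authors' adjusted p. Over all alternatives the adjusted p ran from 0.00784 to 0.474 for Serinc5 and from 0.0383 to 0.609 for Dhx30. All 10 named genes kept their direction in every alternative run for them, which for Fes leaves out the authors' adjusted p. With the replicate block 0 linked genes passed, and 122 of all genes against 37. Correlations of same-number RNA libraries were 0.21, 0.31 and -0.11, and those of other pairs of a WT and a cKO-labelled library ran from -0.396 to 0.334. They were taken on deviations from means of 3 libraries, so they cannot settle whether the numbers pair the samples. Peaks at the minimum rest on 10 to 13 tags, which limits every presence call here.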
